A study of Homo sapiens with 4 samples.

Results

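The genes that encode the steps from RAS to ERK were followed in the A375 melanoma line before and after resistance to inhibitors of this same cascade. The 7 genes were chosen by name, with earlier results of these data known, out of 32991 genes listed in all libraries. They were *NRAS* and *HRAS*, which encode RAS GTPases, *BRAF* and *ARAF*, which encode RAF kinases, *MAP2K1* and *MAP2K2*, which encode MEK1 and MEK2, and *MAPK3*, which encodes ERK1. All 7 passed the filter on low genes, a mean of at least 1 CPM over the libraries, as 12679 genes did. CPM stands for the UMIs of a gene per 1000000 UMIs of its library, a UMI (unique molecular identifier) being the tag by which each captured transcript molecule is counted once.

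In this cascade a RAS protein bound to GTP recruits RAF kinases to the membrane, RAF phosphorylates MEK, and MEK phosphorylates ERK, which acts on transcription factors and other kinases. In melanoma the cascade is often driven by a mutant BRAF kinase. Vemurafenib inhibits mutant BRAF, whereas cobimetinib and trametinib inhibit MEK1 and MEK2, so that 3 of the genes described here encode direct drug targets.

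All 4 cultures were labelled as A375, a commercial human cell line with the *BRAF* V600E mutation. The S culture was untreated, RV had been made resistant to vemurafenib, RVC to vemurafenib with cobimetinib and RVT to vemurafenib with trametinib, by 10 to 14 days on the drugs, which were taken away 24 h before capture. Each condition was 1 droplet library (10x Genomics Chromium v2, which reads transcripts from their 3′ end, with 10000 cells loaded), so that no test between conditions was possible and the spread between cultures is unknown. The ranges given with values are 95% intervals, exact except for paralog ratios taken over S, and cover counting error only. A difference is called here where it reached 2-fold.

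The libraries held 25390117 to 58519152 UMIs in 4177 to 8446 filtered cells, and the median UMIs per cell of S, RV, RVC and RVT were 8799.5, 11553, 3958 and 2864. Filtered libraries shared 36 to 103 cell barcodes in pairs, at most 1.35% of the smaller library. S and RV were counted with one gene list and RVC and RVT with another, so that RV over S and RVT over RVC are comparisons within a gene list. The melanoma and neural crest markers, 9 genes, summed to 225, 249, 87.2 and 160 CPM in S, RV, RVC and RVT, and 1, 1, 4 and 3 of them had no UMI. *SOX10*, a defining transcription factor of this lineage, was at 86.5 CPM in S, 39.9 in RV and 19.7 in RVT and had no UMI in RVC, and *TYR* had none in any library. *S100B*, another marker of the lineage, was at 32.8, 6.96, 0 and 0.236 CPM in S, RV, RVC and RVT. *MITF*, the melanocyte master regulator, was at 9.77, 20.01, 8.13 and 41.9 CPM, and *AXL*, a receptor kinase gene, at 94.7, 170, 78.5 and 98.3. A list of 3 fibroblast genes summed to 0.410, 0.362, 138 and 13.6 CPM in S, RV, RVC and RVT, of which *COL3A1* made up 121 and *DCN* 14.8 in RVC. The library labelled RVC thus had no UMI of *SOX10* or *S100B* and held fibroblast genes. Its *MITF* and *AXL*, at 8.13 and 78.5 CPM, were beside 9.77 and 94.7 in S. *AXL* alone made up 78.5 of the 87.2 CPM of the 9 markers in RVC, against 94.7 of 225 in S. These markers are mixed for a melanoma label, and whether the RVC cells derive from A375 was not tested. Lists for leukocytes, endothelium and epithelium stayed at or below 1.33 CPM in every library, and *PTPRC*, *CD3E* and *CDH1* had no UMI in any of them. The endothelial genes *PECAM1* and *VWF*, the epithelial gene *EPCAM* and the myeloid gene *LYZ* had UMIs in every library, with *PECAM1* the highest of them in RVC at 1.21 CPM. The part of these marker differences in the values below was not tested.

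The promoters of *NRAS* and *MAP2K1*, which rose in both double-agent-resistant libraries, and of *MAPK3*, the gene with the lowest ratio to S, are shown because these genes were past 2-fold in both before base composition was taken into account. After the centring described further on, only *MAP2K1* in RVC, at 1.02 on the log2 scale, stayed past 2-fold, with *MAP2K1* at 0.61 in RVT, *NRAS* at 0.65 in RVC and 0.93 in RVT, and *MAPK3* at 0.31 and -0.48. Each sequence is from RefSeq on GRCh38.p14, reads 5′ to 3′ on the strand of the gene, and is 300 bases long. The windows hold the start of 1 of 1 coding transcripts of *NRAS*, 1 of 2 of *MAP2K1* and 4 of 6 of *MAPK3* (GENCODE 29), with 127, 155 and 161 bases before the first of them. The window listed for *BRAF* held the start of 0 of 5 coding transcripts and is not used. Capitals mark the GC box GGGCGG, in which SP/KLF factors bind, and the ETS motif CCGGAAGT, both searched on either strand. The windows were chr1:114716722-114717021 on the minus strand for *NRAS*, chr15:66386662-66386961 on the plus strand for *MAP2K1* and chr16:30123171-30123470 on the minus strand for *MAPK3*.
NRAS: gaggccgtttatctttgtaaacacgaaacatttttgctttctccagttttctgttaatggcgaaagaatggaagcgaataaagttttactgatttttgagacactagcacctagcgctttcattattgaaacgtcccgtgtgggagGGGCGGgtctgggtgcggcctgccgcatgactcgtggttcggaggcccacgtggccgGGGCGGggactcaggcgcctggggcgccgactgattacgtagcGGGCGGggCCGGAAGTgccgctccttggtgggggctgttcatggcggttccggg
MAP2K1: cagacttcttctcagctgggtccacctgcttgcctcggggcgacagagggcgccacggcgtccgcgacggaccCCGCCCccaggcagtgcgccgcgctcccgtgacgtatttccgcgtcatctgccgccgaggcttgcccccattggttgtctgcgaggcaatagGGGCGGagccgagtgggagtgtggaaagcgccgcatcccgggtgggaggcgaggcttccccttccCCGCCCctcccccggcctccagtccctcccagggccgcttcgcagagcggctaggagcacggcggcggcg
MAPK3: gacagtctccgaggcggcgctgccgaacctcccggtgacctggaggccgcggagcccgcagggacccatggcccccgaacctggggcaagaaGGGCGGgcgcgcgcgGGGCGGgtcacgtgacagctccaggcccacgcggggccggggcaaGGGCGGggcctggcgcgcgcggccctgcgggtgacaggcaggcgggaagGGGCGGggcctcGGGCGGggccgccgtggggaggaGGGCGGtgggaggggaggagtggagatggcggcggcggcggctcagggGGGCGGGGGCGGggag
The GC box occurred 3 times in the window of *NRAS*, 3 times in that of *MAP2K1* and 8 times in that of *MAPK3*, and no match overlapped another. Of the windows not shown, *ARAF* had 0, *HRAS* 5 and *MAP2K2* 2. Of all 27305 promoters of this length, 44.6% held a GC box. The ETS motif was found once, in *NRAS*, and in 4.44% of all promoters, and the AP-1 motif TGACTCA in none of the 6 windows and in 4.92% of all. The GC content of the windows was 57.3% in *NRAS*, 72.0% in *MAP2K1* and 80.7% in *MAPK3*. A match is a description of these letters, and binding was not measured.

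*BRAF*, whose protein is the target of vemurafenib, had 3.38 CPM in S (2.93 to 3.89), while RV had 5.70 (5.07 to 6.38), RVC 10.5 (9.44 to 11.7) and RVT 22.7 (20.9 to 24.6). The intervals of the 4 libraries did not overlap, and every resistant library was above S. How many of all genes have intervals that stand apart in this way is not given here, nor for the genes below. The *BRAF* levels rest on 198, 299, 347 and 576 UMIs. The counts do not tell alleles of *BRAF* apart, nor one transcript form from another. *ARAF*, which encodes a weaker RAF kinase, had 22.0 CPM in S (20.8 to 23.2), while RV had 22.8 (21.5 to 24.1), RVC 14.5 (13.2 to 15.8) and RVT 11.8 (10.5 to 13.2). S and RV overlapped, and both double-agent-resistant libraries were lower.

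*NRAS*, the RAS gene most often mutated in melanoma, had 13.7 CPM in S (12.7 to 14.7), while RV had 14.1 (13.1 to 15.1), RVC 31.4 (29.5 to 33.4) and RVT 50.65 (47.9 to 53.5). S and RV overlapped, and RVC and RVT stood above them and apart from each other. *HRAS* had 15.3 CPM in S (14.3 to 16.3), while RV had 18.8 (17.6 to 19.97), RVC 14.3 (13.0 to 15.6) and RVT 10.0 (8.81 to 11.3). RV was the highest and RVT the lowest, while S and RVC overlapped.

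*MAP2K1*, one of the target genes of the MEK inhibitors, had 13.3 CPM in S (12.3 to 14.2), while RV had 20.7 (19.4 to 21.9), RVC 35.8 (33.7 to 37.9) and RVT 31.7 (29.5 to 33.9). All resistant libraries were above S, and the intervals of RVC and RVT overlapped at their edges. *MAP2K2*, its paralog, had 12.7 CPM in S (11.8 to 13.6), while RV had 13.0 (12.1 to 14.0), RVC 13.5 (12.3 to 14.8) and RVT 16.6 (15.0 to 18.2). Its S, RV and RVC intervals overlapped, so that only RVT stood apart. *MAPK3*, the ERK gene of the set, had 28.6 CPM in S (27.2 to 30.0), while RV had 29.8 (28.3 to 31.3), RVC 11.6 (10.5 to 12.8) and RVT 6.54 (5.58 to 7.61). S and RV overlapped, RVC lay below them and RVT was the lowest.

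**Figure D1:**
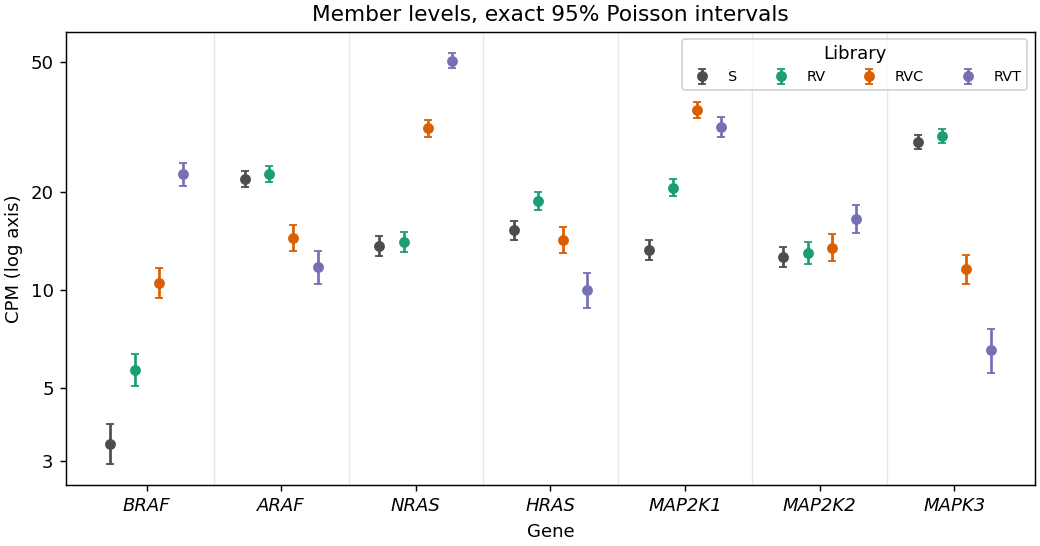
Level of each gene (CPM, log axis) in the S, RV, RVC and RVT libraries; points are library sums of filtered cells and bars exact 95% Poisson intervals, with 1 library per condition. *BRAF* climbed from 3.38 in S to 22.7 in RVT, whereas *MAPK3* went from 28.6 to 6.54.

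RV and S were compared to ask what resistance to vemurafenib alone leaves in the cascade. None of the 7 genes reached 2-fold, against 6.83% of all genes (3.57% higher and 3.26% lower). *BRAF* was 1.68-fold higher in RV (1.40 to 2.03), a log2 ratio of 0.75 that exceeded 93.9% of those of all genes, and *MAP2K1* was 1.56-fold higher (1.42 to 1.71), exceeding 92.1%. *HRAS* was 1.23-fold higher (1.12 to 1.34). Among the few S and RV cells with 2000 to 5000 UMIs the log2 ratios of *MAP2K1* and *HRAS* were instead -0.39 and -0.27, on 6 RV UMIs each. The ratios of *ARAF*, *NRAS*, *MAP2K2* and *MAPK3* were between 1.03 and 1.04, and the interval of each contained 1, with bounds from 0.925 to 1.14.

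RVC and S were compared for the combination with cobimetinib. *BRAF* rose 3.11-fold (2.60 to 3.72), *MAP2K1* 2.70-fold (2.46 to 2.96) and *NRAS* 2.30-fold (2.09 to 2.52), so that 3 of 7 genes rose past 2-fold, where 23.8% of all genes did. *MAPK3* fell 2.46-fold (2.204 to 2.76), a direction that turned once base composition was taken into account (given further on), 1 gene of 7 where 22.4% of all genes fell, and 46.2% of all genes changed in either direction. *ARAF* was 1.52-fold lower (1.37 to 1.69). *HRAS* was at 0.932 times S (0.832 to 1.04) and *MAP2K2* at 1.07 times (0.948 to 1.203), and both intervals contained 1.

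RVT and S were compared for the combination with trametinib. The same 3 genes rose, *BRAF* 6.70-fold (5.70 to 7.92), *NRAS* 3.70-fold (3.39 to 4.05) and *MAP2K1* 2.39-fold (2.16 to 2.64), where 34.1% of all genes rose past 2-fold. After centring on base composition *NRAS* and *MAP2K1* were no longer past it in RVT, nor *NRAS* in RVC. *MAPK3* fell 4.37-fold (3.72 to 5.15), where 21.7% of all genes fell, and 55.8% changed in either direction. After centring *MAPK3* was at -0.48 on the log2 scale and no longer past 2-fold. *ARAF* was 1.87-fold lower (1.64 to 2.12), *HRAS*, whose direction turned with centring, 1.53-fold lower (1.33 to 1.76) and *MAP2K2* 1.31-fold higher (1.16 to 1.48). The median log2 ratio of all genes was 0.41 in this comparison and 0.21 in RVC over S, and the medians of the 7 genes were 0.39 and 0.10. With TMM scaling, which shifts all log2 ratios by -0.52 in RVT over S and by -0.21 in RVC over S, *MAP2K1* was 1.67-fold higher in RVT and *NRAS* 1.98-fold higher in RVC, and *MAP2K2* turned to 0.916 times S in RVT and 0.922 times in RVC. On that scale *ARAF* at 0.375 and *HRAS* at 0.458 times S in RVT were also past 2-fold. The shares of all genes past 2-fold with TMM scaling are not given here, so these calls have no background beside them.

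RVT and RVC, which share a gene list, were compared to set the MEK inhibitors side by side. *BRAF* was 2.16-fold higher in RVT (1.88 to 2.47), the only gene of 7 past 2-fold, where 34.1% of all genes were (21.8% higher and 12.3% lower). *NRAS* was 1.61-fold higher (1.49 to 1.75) and *MAP2K2* 1.23-fold higher (1.07 to 1.40), the latter at 0.994 with TMM scaling. On that scale *BRAF* was at 1.75 times RVC, short of 2-fold, and *MAPK3* at 0.458 times, past it, with no share of all genes given beside it. *MAPK3* was 1.77-fold lower (1.47 to 2.14), *HRAS* 1.42-fold lower (1.22 to 1.67), *ARAF* 1.23-fold lower (1.06 to 1.42) and *MAP2K1* 1.13-fold lower (1.03 to 1.24). The cultures also differed in depth and in the markers above, so that the drug and the culture cannot be told apart.

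The 7 genes differ in the base composition of the transcript end from which the counts were read. Over the last 500 bases of the transcript (GENCODE 29, GRCh38) the GC content was 31.0% in *NRAS*, 32.0% in *BRAF*, 44.0% in *MAP2K1*, 56.4% in *ARAF*, 62.4% in *MAPK3*, 63.2% in *MAP2K2* and 64.4% in *HRAS*. Other coding transcripts end elsewhere, so that the range was 32.0% to 42.0% for *BRAF* and 26.6% to 57.0% for *ARAF*. The 3 genes below 50% were those that rose past 2-fold in RVC and RVT, and no gene above 50% did, although *MAP2K2* was 1.31-fold higher in RVT. Across all genes the log2 ratio to S fell with this GC content in RVC (Spearman correlation -0.32 over 12584 genes) and in RVT (-0.38 over 12607), but not in RV (-0.003 over 12628), and in RVT over RVC it was -0.15. These correlations are across genes of the same libraries, and RVC and RVT also differ from S in depth and gene list. The median log2 ratio of the genes with the lowest GC content was 0.58 in RVC and 0.97 in RVT, and the genes with 58.0% or more had medians of -1.62 and -1.65.

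**Figure D2:**
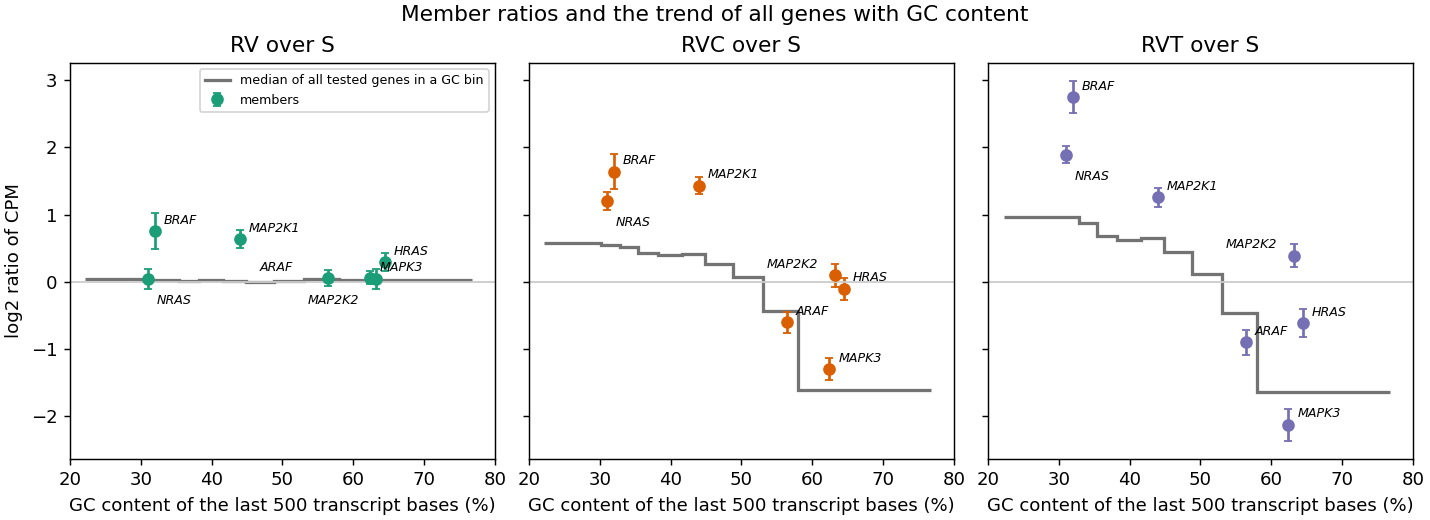
Log2 ratio of CPM to S of each gene (points, bars are exact 95% intervals) against the GC content of the last 500 transcript bases (%), with the median of all tested genes in each of 10 GC bins as a grey step line. The line is flat in RV over S and drops to -1.62 and -1.65 in the highest bin in RVC and RVT, where *MAP2K2* and *HRAS* lie above it.

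When each log2 ratio was taken relative to the median of genes of like GC content, *BRAF* was still past 2-fold in both double-agent-resistant libraries, at 1.09 in RVC (2.13-fold) and 1.78 in RVT (3.44-fold), exceeding 84.1% and 90.5% of all genes. *MAP2K1* was at 1.02 in RVC and 0.61 in RVT, and *NRAS* at 0.65 and 0.93. *HRAS* turned from -0.10 to 1.51 in RVC and from -0.61 to 1.03 in RVT, and *MAP2K2* went from 0.10 to 1.70 and from 0.39 to 2.03. *MAPK3* turned to 0.31 in RVC and was at -0.48 in RVT, and *ARAF* was at -0.19 and -0.45. The value of *ARAF* depended on the centring, and in RVT it ran from -0.19 with 20 bins to -1.35, past 2-fold lower, with the mean GC content over coding transcripts. By the last 500 bases 4 of 7 genes were past 2-fold higher in RVC and 3 in RVT, where 17.8% and 22.0% of all genes were, and 0 were lower, where 22.9% and 24.9% were (40.7% and 46.8% in either direction). Both other centrings left 3 of 7 higher in RVC, with *MAP2K1* at 0.97 and 0.998. In RV over S the centred values were 0.73 for *BRAF* and 0.63 for *MAP2K1*, close to the uncentred 0.75 and 0.64, and 0 of 7 genes were past 2-fold, against 6.77% of all genes (3.45% higher and 3.32% lower). In RVT over RVC *BRAF* went from 1.11 to 0.61 and *MAPK3* from -0.83 to -0.89, and 0 of the 7 genes were past 2-fold, against 30.5% of all genes (13.9% higher and 16.6% lower). The part of base composition in the differences was not tested otherwise, and in RVC and RVT over S drug, gene list and depth cannot be told apart.

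**Figure D3:**
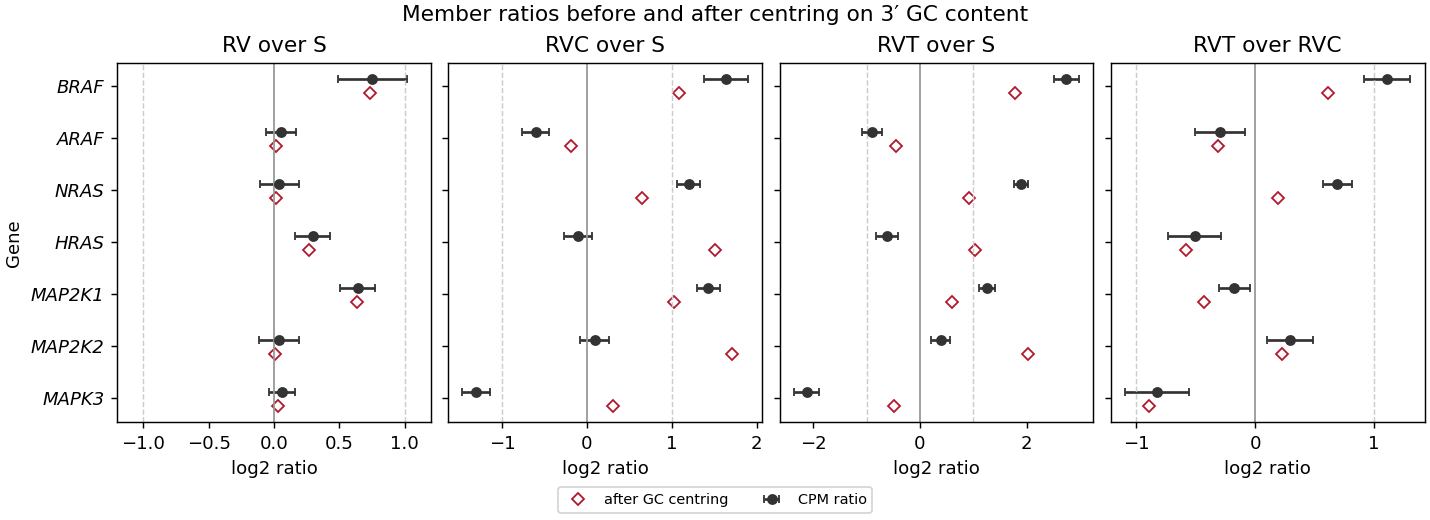
Log2 ratio of CPM (filled circles with exact 95% intervals) and the same after centring on 3′ GC content (open diamonds) for the 7 genes in the 4 comparisons, with dashed lines at 2-fold. In RV over S the marks nearly coincide, whereas *HRAS* turns from -0.61 to 1.03 in RVT over S.

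The balance of paralogs within a tier differed between libraries, and a ratio of UMIs within a library needs no library size. It is not a ratio of molecules, since capture can differ between genes, and only its change between libraries is described. For *BRAF* to *ARAF* the ratio was 0.154 in S (0.132 to 0.179), while RV had 0.25 (0.219 to 0.284), RVC 0.727 (0.632 to 0.837) and RVT 1.93 (1.67 to 2.22), which is 12.5 times S in RVT (10.2 to 15.4). For *NRAS* to *HRAS* it was 0.894, 0.75, 2.202 and 5.06 in S, RV, RVC and RVT, so that RV lay below S at 0.839 times (0.733 to 0.960) and RVT above it at 5.66 times (4.80 to 6.68). For *MAP2K1* to *MAP2K2* it was 1.05, 1.59, 2.64 and 1.91 in S, RV, RVC and RVT. RVC had the highest value of this pair, at 2.52 times S (2.18 to 2.93). In each pair the first gene has the lower GC content at its 3′ end, and after centring *HRAS* and *MAP2K2* were above *NRAS* and *MAP2K1* in both double-agent-resistant libraries. *BRAF* stayed above *ARAF*, but in RVT their log2 ratios to S went from 2.75 and -0.90 to 1.78 and -0.45, a smaller gap.

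Together the 7 genes came to 109 CPM in S (106 to 112), while RV had 125 (122 to 128), RVC 131 (128 to 135) and RVT 150 (145 to 155). The rise in RVT depended on the scaling. With TMM scaling, which shifts log2 ratios by -0.52 in RVT over S, the summed level of RVT would lie slightly below S. The make-up of that sum differed more than its size. In S, RV, RVC and RVT *BRAF* made up 3.11%, 4.57%, 8.003% and 15.1% of it, and *NRAS* 12.6%, 11.3%, 23.9% and 33.8%. *MAPK3* made up 26.2%, 23.9%, 8.81% and 4.36% in S, RV, RVC and RVT. These shares were not centred on base composition. *BRAF* and *NRAS* have a low 3′ GC content and *MAPK3* a high one, and across all genes the ratio to S fell with it in RVC and RVT.

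Single cells held few UMIs of these genes. To compare shares of cells, each cell was thinned at random to 1500 UMIs, which left out 397 RVC and 844 RVT cells that had fewer. The share with a *BRAF* UMI was then 0.474% for S (0.320 to 0.675), with RV at 0.910% (0.645 to 1.25), RVC at 1.55% (1.28 to 1.86) and RVT at 3.24% (2.85 to 3.66), in the same order as the CPM, though the S and RV intervals overlapped. Unthinned, the shares were 3.09%, 6.92%, 4.40% and 6.57%, in which RV, with the most UMIs per cell, exceeded RVC. For *NRAS* the thinned shares were 2.21%, 2.06%, 4.49% and 7.56% in S, RV, RVC and RVT (unthinned 11.8%, 15.7%, 12.5% and 14.2%). For *MAPK3* they were 3.92%, 4.86%, 1.83% and 1.12% (unthinned 22.8%, 30.2%, 4.80% and 1.95%), with RVC and RVT below S and RV.

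*MAP2K1* was found in 1.91%, 3.09%, 5.30% and 4.59% of thinned cells of S, RV, RVC and RVT, and *MAP2K2* in 1.93%, 2.13%, 2.03% and 2.60%. *HRAS* was found in 2.10%, 2.75%, 2.06% and 1.47% and *ARAF* in 2.76%, 3.14%, 2.01% and 1.93%. The unthinned shares were 11.4%, 21.8%, 14.1% and 8.84% for *MAP2K1*, 10.99%, 14.3%, 5.72% and 4.82% for *MAP2K2*, 12.8%, 19.97%, 5.85% and 2.92% for *HRAS*, and 18.2%, 24.2%, 5.96% and 3.54% for *ARAF*. No UMI of any of the 7 genes was found in 85.7% of thinned S cells, 82.6% of RV, 82.5% of RVC and 79.4% of RVT cells. The cultures held no cell type known to lack these genes, so that the share free RNA alone would give was not measured.

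**Figure D4:**
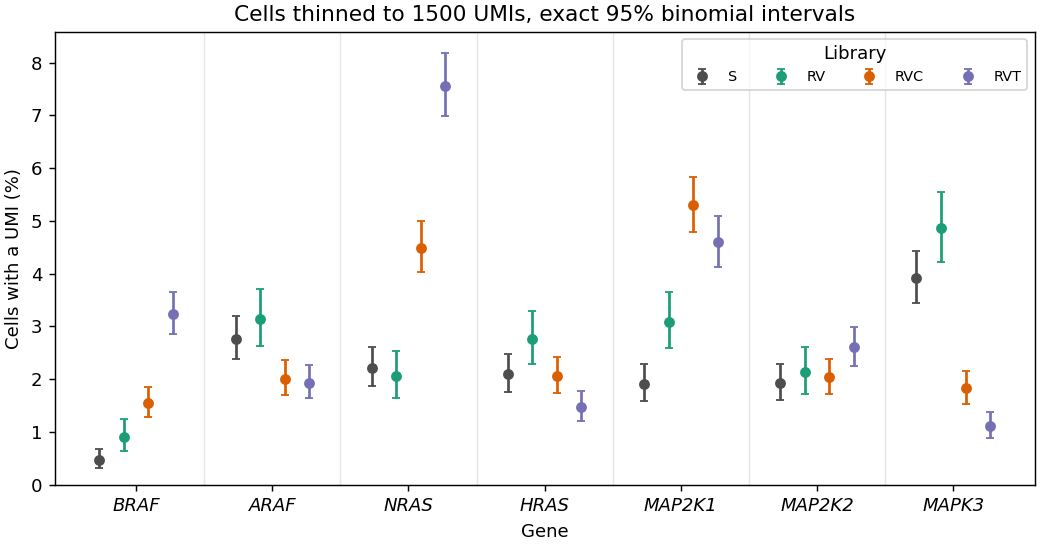
Share of cells with at least 1 UMI of each gene (%, axis from 0) after thinning each cell to 1500 UMIs, per library with exact 95% binomial intervals. *NRAS* reached 7.56% in RVT against 2.21% in S, and *MAPK3* 1.12% against 3.92%.

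The genes were then compared between cell states within each library, where the gene list is the same. Mitotic cells were those with at least 3 UMIs of 10 mitotic genes after thinning, 9.24% of S, 11.5% of RV, 24.3% of RVC and 4.63% of RVT cells. *BRAF* in mitotic cells was at 1.05, 1.06, 1.10 and 1.01 times the other cells of S, RV, RVC and RVT, and every interval contained 1. *HRAS* was lower in mitotic cells of S, at 0.747 times (0.580 to 0.950), and of RV, at 0.811 times (0.655 to 0.994), while in RVT it was at 23.0 CPM in mitotic cells against 9.29 in others, 2.48 times (1.67 to 3.57), on 34 UMIs in 352 cells. In RV mitotic cells *NRAS* was at 1.32 times (1.07 to 1.61) and *ARAF* at 1.21 times (1.02 to 1.42). Mitotic cells held more UMIs than others, a median of 4012 against 2995 in RVT.

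Cells were also divided by the share of their UMIs on the nuclear RNAs *NEAT1* and *MALAT1* and by their mitochondrial share, comparing the upper with the lower 33.3% of cells. *BRAF* was at 1.46 times in the cells with most nuclear RNA in RVC (1.11 to 1.94) and 1.25 times in RVT (1.01 to 1.54), and at 1.003 in S and 0.909 in RV with intervals that contained 1. *MAP2K1* was at 1.35 times in RVC (1.17 to 1.56), and at 0.908, 0.874 and 1.09 in S, RV and RVT with intervals that contained 1. By mitochondrial share, *BRAF* was at 1.58 times in RVC (1.21 to 2.09) and 1.28 times in RVT (1.04 to 1.57), against 1.27 in S (0.903 to 1.801) and 1.02 in RV (0.770 to 1.36). *HRAS* was at 1.46 times in RVC (1.16 to 1.85) and 1.35 times in S (1.14 to 1.59), and *ARAF* and *MAP2K1* were both at 1.27 times in RVC, whereas *MAP2K1* was at 0.728 times in RV (0.627 to 0.845). *MAP2K2* was at 1.66 times in S (1.38 to 2.00) and 1.65 times in RV (1.36 to 2.01), and at 1.08 in RVC and 1.02 in RVT with intervals that contained 1. Over the 84 ratios of these 3 divisions 26 intervals did not contain 1, a share close to the 32.3% of such ratios over all genes. The intervals are not adjusted for their number. In S, cells with and without a UMI of the noncoding RNA *LINC01419* were compared as well, and the interval of each of the 7 genes contained 1.

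Other genes of the cascade were taken from a list of 67 genes by role, of which 65 passed the filter on low genes. In RV over S 2 of them rose past 2-fold and 1 fell, in RVC over S 21 rose and 8 fell, and in RVT over S 21 rose and 9 fell. The shares were 3.08% and 1.54% in RV (3.57% and 3.26% of all genes), 32.3% and 12.3% in RVC (23.8% and 22.4%), and 32.3% and 13.8% in RVT (34.1% and 21.7%). Their median log2 ratios were -0.04, 0.46 and 0.34, beside 0.02, 0.21 and 0.41 for all genes. After centring on GC content 14 rose and 9 fell in RVC, where 17.8% and 22.9% of all genes did, and 16 rose and 13 fell in RVT, where 22.0% and 24.9% did. With TMM scaling, which lowers all genes alike, 14 rose and 9 fell in RVC, and 16 rose and 16 fell in RVT. The shares of all genes on that scale are not given here, so these counts have no background beside them. The shares of all genes above stand behind the groups below, which hold 4 to 15 genes each. The genes in RV were *RASAL2*, a RAS GTPase-activating protein gene, at 10.3 CPM in S and 21.6 in RV, *MAPK13*, a p38 kinase gene, at 0.496 and 1.28, and *KSR1*, which encodes a scaffold for RAF and MEK, at 1.13 and 0.362.

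Upstream of the kinases, 3 of 6 RAS relatives rose in RVC and in RVT, and *RAP1B*, which encodes a RAS-like GTPase, went from 11.1 CPM in S to 69.1 in RVC and 98.3 in RVT, whereas *RRAS* was at 68.5, 25.7 and 35.6. After centring 2 of the relatives rose in RVC and 3 in RVT, and *RRAS* turned to 0.19 and 0.70 on the log2 scale. Of the 6 adaptors and exchange factors that passed the filter, 3 rose in RVC and 4 in RVT, with *GAB1* at 0.564 CPM in S, 1.36 in RVC and 3.47 in RVT, and after centring 0 rose in RVC and 2 in RVT. Of the GTPase-activating protein genes 0 of 6 rose in RVC and 3 in RVT, with *NF1*, which encodes a negative regulator of RAS, at 15.6, 28.7 and 58.4 CPM, and after centring 0 of them rose and 1 fell in RVT, with *NF1* at 0.95. Among 8 genes of RAS processing and turnover 2 rose and 2 fell in RVC, and 2 rose and 3 fell in RVT. In this group *ZDHHC9*, which encodes a subunit of a RAS palmitoyltransferase, went from 6.60 CPM in S to 16.6 in RVC and 21.8 in RVT, and *RCE1*, a protease gene of the CAAX pathway, from 12.9 to 3.82 and 2.17. After centring 2 of these genes rose and 3 fell in RVC, and 2 rose and 4 fell in RVT. *ZDHHC9* was then at 0.92 in RVC on the log2 scale, short of 2-fold, and another gene took its place in the count. In RVT *ZDHHC9* was at 1.07, and *RCE1* was at -1.34 in RVC and -2.12 in RVT.

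Of 15 cofactor and scaffold genes of RAF and MEK, 7 rose and 2 fell in RVC, and 4 rose and 3 fell in RVT, and after centring 3 rose and 3 fell in RVC and 3 rose and 2 fell in RVT. *PPP1CB*, the catalytic subunit gene of the phosphatase complex that activates RAF, went from 43.7 CPM in S to 192 in RVC and 359 in RVT. *CDC37*, a co-chaperone gene of kinases including RAF, went from 251 to 64.3 and 44.7. After centring *PPP1CB* stayed past 2-fold, at 1.59 in RVC and 2.07 in RVT on the log2 scale, and *CDC37* was at -0.36 and -0.85.

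Among 4 other MEK activators 1 rose in RVC and 1 fell in RVT, and after centring 0 rose and 2 fell in each. *MAP3K8* was at 1.09, 0.934, 2.21 and 0.394 CPM in S, RV, RVC and RVT, and at 0.44 on the centred log2 scale in RVC. Of 8 kinase and anchor genes downstream of ERK, 1 rose and 1 fell in RVC, and 2 rose and 0 fell in RVT, while after centring 1 rose and 1 fell in RVC and 1 rose and 2 fell in RVT. *RPS6KA2*, an RSK kinase gene, was at 4.19, 2.54, 0.152 and 2.52 CPM in S, RV, RVC and RVT. In RVC 3 UMIs equal 0.091 CPM, so that the 0.152 CPM of *RPS6KA2* there rests on very few UMIs. Its ratio of RVC to S was 0.036 (0.012 to 0.086). Of 12 genes of parallel MAPK modules 4 rose and 2 fell in RVC, and 3 rose and 2 fell in RVT. *MAPK9*, which encodes the kinase JNK2, went from 5.42 CPM in S to 22.9 in RVC and 23.0 in RVT, and *MAP2K5*, the activator gene of the ERK5 module, from 12.0 to 2.18 and 2.09. After centring 6 of the 12 rose and 0 fell in RVC, 5 rose and 2 fell in RVT, and *MAP2K5* was at -0.85 and -0.88.

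**Figure D5:**
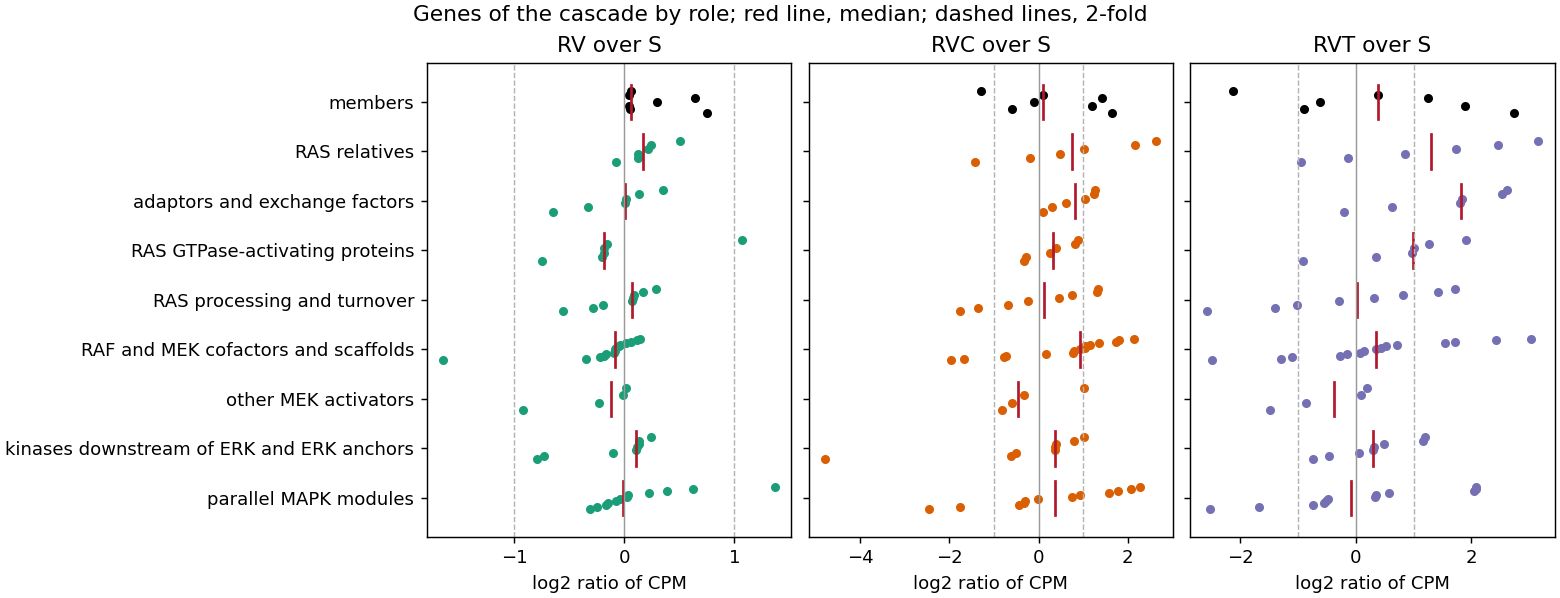
Log2 ratio of CPM to S for the 7 genes (black) and 65 other genes of the cascade by role, one point per gene, with the group median as a red line and dashed lines at 2-fold. Most points lie within 2-fold in RV over S, whereas 29 of 65 listed genes lie outside it in RVC and 30 in RVT, beside 46.2% and 55.8% of all genes.

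Some of the 7 genes have neighbours whose reads could be mixed with theirs, and whether counting used strand is not given in the sources used here. *BRAF* (ENSG00000157764, chr7:140719327-140924928, minus strand) overlaps *NDUFB2* on the other strand, which was at 411, 434, 190 and 114 CPM in S, RV, RVC and RVT. *MAP2K1* (ENSG00000169032, chr15:66386817-66492312, plus strand) overlaps *SNAPC5*, at 50.1, 50.9, 71.8 and 70.1 CPM in S, RV, RVC and RVT. *ARAF* (ENSG00000078061, chrX:47561100-47571920, plus strand) overlaps *SYN1*, which was at or below 0.137 CPM in every library. *GDPD3* lies just downstream of *MAPK3* (ENSG00000102882, chr16:30114105-30123506, minus strand) on the same strand, at 0.530, 0.877, 2.40 and 0.866 CPM in S, RV, RVC and RVT, where *MAPK3* itself was at 28.6, 29.8, 11.6 and 6.54. *NRAS* (ENSG00000213281, chr1:114704469-114716894), *HRAS* (ENSG00000174775, chr11:532242-537287) and *MAP2K2* (ENSG00000126934, chr19:4090321-4124129), all on the minus strand, overlap no annotated gene. Whether reads of these neighbours entered the counts was not tested. Pseudogenes named after *BRAF*, *ARAF* and *MAP2K1* had no row of their own in the tables, so that their part in these counts was not tested.

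The genes whose levels followed the course of *BRAF* most closely over the 4 libraries were taken from 12563 genes by the root mean square distance of centred log2 CPM. They were a gene without a symbol (ENSG00000226434, distance 0.0475), *TBX3* (0.0490), *WFS1* (0.0571), *LIMA1* (0.0586) and *CASC9* (0.0711). *TBX3* was at 9.57, 15.3, 27.1 and 60.0 CPM in S, RV, RVC and RVT, and *LIMA1* at 23.4, 39.0, 79.9 and 161. With only 4 points that come from the same libraries, such likeness is a description.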

How the data were processed

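The authors cultured A375 cells, captured them on a 10x Genomics Chromium (v2 kit) and, per the submitters' processing notes, used bcl2fastq 2.20.0.422, Cell Ranger and the GRCh38 build; the gene annotation and the version of Cell Ranger are not given in the sources used here. The deposited values were raw UMI counts, whole numbers for each barcode and gene, for 6695 (S), 4328 (RV), 9266 (RVC) and 10427 (RVT) barcodes. The study states fewer cells than this for S and RV and the same numbers for RVC and RVT.

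Barcodes with fewer than 500 genes or more than 20% mitochondrial UMIs were removed. Doublets were scored with scrublet (scanpy 1.11.5), whose own threshold marked at most 4 barcodes a library, so the top scores were removed at 0.8% per 1000 barcodes. For each library and gene the UMIs of the remaining cells were added up and divided by the library total. Intervals were exact (Poisson for levels, Clopper-Pearson for shares, and for ratios conditional on the sum of both counts). Those of paralog ratios taken over S were instead normal approximations on the log scale. Thinning used random seed 1. Ratios were centred by subtracting the median log2 ratio of the genes in the same of 10 GC bins. Calculations used python 3.11.15, numpy 2.4.6, pandas 2.3.3 and scipy 1.17.1, figures matplotlib 3.10.9, and TMM factors edgeR 4.0.16 in R 4.3.3. Ratios and centring were checked on simulated sums.

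The members, the lists by role, the markers and the divisions of cells were chosen with earlier results of these data known. Beyond the members, genes were named where they had the largest rise or fall of their group in a comparison to S, or where they were among the 5 most like *BRAF*. Markers and overlapping genes are named besides. Centrings on GC content with the mean over coding transcripts and with 20 bins were added after seeing the data. Protein sequences and genes listed in only some libraries were not used here.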

Additional observations from a re-analysis of the deposited data

Results flagged for a closer look

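Within libraries, 3 genes stood on opposite sides in different libraries, each with an interval that did not contain 1, and the differences between libraries were not tested. *HRAS* in mitotic over other cells was at 0.747 in S and 0.811 in RV but at 2.48 in RVT. *ARAF* in the 33.3% of cells with most *NEAT1* and *MALAT1* over the 33.3% with least was at 0.865 in S and 1.26 in RVC. *MAP2K1* in the 33.3% of cells with the highest mitochondrial share over the 33.3% with the lowest was at 0.728 in RV and 1.27 in RVC. They were found among 84 such ratios, whose intervals are not adjusted for their number. Of these intervals 26 did not contain 1, a share close to the 32.3% over all genes. How many of all genes stood on opposite sides is not given here.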

How the results depend on the processing

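The 28 log2 ratios of the 7 genes were recomputed under 12 settings, which gave 335 values, and 238 moved by less than counting error. The sign changed in 27, of which 11 came with centring on GC content. *MAPK3* in RVC over S was reversed by each centring, to 0.31 by the last 500 bases, 0.36 with the mean over coding transcripts and 0.68 with 20 bins. *BRAF* was above S in every setting that gave a ratio, between 0.61 and 0.94 in RV, 1.09 and 1.73 in RVC and 1.78 and 2.84 in RVT. Cells with 2000 to 5000 UMIs are only the lowest tail of S (350 cells) and RV (100 cells), whose deposited barcodes start at 2494 and 3615 UMIs, against 500 in RVC and RVT, so that depth is not matched. *BRAF* had 0 UMIs there in RV and 5 in S, which gave no ratio. In these cells *MAP2K1* and *HRAS* in RV over S turned to -0.39 and -0.27, and *NRAS* in RVC over S (0.99) and *MAP2K1* in RVT over S (0.82) were no longer past 2-fold.

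Counts past 2-fold moved by over 1.5 times as follows. The same cells gave 2 members and 15 listed genes in RV over S, but the 2 are *MAPK3* at -1.07, on 6 RV UMIs, and *BRAF* with its 0 UMIs, too few to be read as falls. At 1.5-fold they were 2 and 9 in RV over S, 45 listed genes in RVC over S, and 3 and 28 in RVT over RVC. At 2-fold 7 listed genes rose and 4 fell in RVT over RVC, where 21.8% and 12.3% of all genes did. Shares of all genes at 1.5-fold, after thinning, with a pseudocount or with other filters are not given here. In RV over S listed genes were 5 after thinning, 0 with a pseudocount of 1 CPM, and 5 with no filter on low genes. A mean of at least 10 CPM, which 40 listed genes had, left 1 in RV over S, 19 in RVC over S and 4 in RVT over RVC. It also left 2 of the 5 genes most like *BRAF*. Each centring left 0 members past 2-fold in RVT over RVC.

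Paralog ratios over S in cells with 2000 to 5000 UMIs were 3.79 for *BRAF* to *ARAF* in RVC, 1.05 for *NRAS* to *HRAS* in RV, and 0.96, 1.95 and 1.21 for *MAP2K1* to *MAP2K2* in RV, RVC and RVT. In these cells RV held only 6 UMIs each of *NRAS*, *HRAS* and *MAP2K1* and 4 of *MAP2K2*. S held 5 of *BRAF*, so that the RV ratios and the 3.79 are too imprecise to read as a change. After thinning the paralog ratios over S were 10.02 for *BRAF* to *ARAF* in RVT, and 0.723 and 2.09 for *NRAS* to *HRAS* in RV and RVC. Shares of cells with a *BRAF* UMI without thinning were 3.09%, 6.92%, 4.40% and 6.57%. The cause was not tested, except that fewer cells or genes enter some of these settings. No paired analysis was possible because each condition has 1 library. Among the 7 genes, the fewest UMIs behind a library level were 166 for *MAPK3* in RVT and 198 for *BRAF* in S. Levels of some markers and listed genes, such as *RPS6KA2* in RVC, rest on fewer.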
